A study of Mus musculus with 24 samples.

Results

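Sox2, Utf1, Dppa3, Klf2, Dnmt3b and Otx2 are 6 genes of pluripotent cells and of the early epiblast, and they were followed here while embryonic stem cells differentiated in embryoid bodies. They were chosen by name with earlier results of these data known. A gene was read only through probes whose platform annotation names that gene alone. Dnmt3b had 2 such probes and the other 5 genes had 1 each, so that 6 of 8973 named genes and 7 of 20280 probes are described. All 6 genes entered the tests, since no filter on low values was applied.

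Cells were sorted from mouse embryoid bodies, the aggregates in which embryonic stem cells differentiate, and their RNA was hybridised to 24 two-colour Agilent arrays. Cells carrying Flk1 on their surface (Flk1+), the VEGF receptor that the gene Kdr encodes, and cells lacking it (Flk1-) were collected at 84 h, 95 h and 8 d of differentiation, with 4 arrays for each of the 6 groups. The labels give no stem cell line, genotype, culture condition or sorting purity, and all 6 groups share whatever these were. Every array carried the same reference, RNA of homogenised whole pups in Cy3 against the sorted cells' RNA in Cy5, with no exchange of dyes. Levels below are log2 ratios of sorted cells to that reference with the median of each array set to 0, so that a level compares arrays for 1 probe and says nothing of 1 gene against another. The sources used here do not state the log base or the direction of the deposited ratios. They are read as log2 of Cy5 over Cy3, and another base would multiply every difference by a common factor.

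Pluripotent cells keep a network of transcription factors active that includes Sox2, the partner of Oct4 on many enhancers, and Klf2, a Krüppel-like factor of the naive state of mouse stem cells. Utf1 is a chromatin-associated protein found in stem cells and epiblast, and Dppa3 (also called Stella) is a marker of naive cells and of the germ line that protects DNA from demethylation in the early embryo. On leaving the naive state the epiblast turns on Otx2, a homeobox factor that redirects Oct4 to new enhancers, and Dnmt3b, a de novo DNA methyltransferase. Several of these genes are used again later: Sox2 and Otx2 in neural tissue, Dppa3 in primordial germ cells, and Klf2 in endothelial cells exposed to blood flow.

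The promoter windows of Sox2, Utf1 and Dnmt3b are printed beside that of Klf2, the gene that rose in Flk1+ cells, so that their letters can be compared. In Flk1- cells all 6 genes fell between 84 h and 8 d, Klf2 among them. The windows run from 250 bases before to 50 bases after the annotated start and come from RefSeq on GRCm38.p6. The windows of 5 of the 6 genes were used, and that of Dppa3 was not analysed here. Sox2 lies at chr3:34649745-34650044, Utf1 at chr7:139943606-139943905, Dnmt3b at chr2:153649199-153649498 and Klf2 at chr8:72318812-72319111, all on the plus strand. Capitals mark the GC box GGGCGG on either strand in every window and, in Klf2 only, a match to the MEF2 motif.
Sox2: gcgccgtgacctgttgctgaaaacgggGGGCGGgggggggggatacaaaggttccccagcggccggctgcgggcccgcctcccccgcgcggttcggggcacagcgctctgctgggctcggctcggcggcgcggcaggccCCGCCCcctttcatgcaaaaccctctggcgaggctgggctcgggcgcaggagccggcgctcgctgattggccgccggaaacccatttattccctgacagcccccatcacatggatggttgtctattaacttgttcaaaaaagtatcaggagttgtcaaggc
Utf1: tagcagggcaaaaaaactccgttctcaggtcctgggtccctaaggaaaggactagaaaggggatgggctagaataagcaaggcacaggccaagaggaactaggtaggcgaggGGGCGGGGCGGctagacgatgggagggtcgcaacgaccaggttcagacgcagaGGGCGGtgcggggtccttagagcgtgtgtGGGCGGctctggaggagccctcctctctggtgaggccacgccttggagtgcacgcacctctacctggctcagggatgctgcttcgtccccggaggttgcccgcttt
Dnmt3b: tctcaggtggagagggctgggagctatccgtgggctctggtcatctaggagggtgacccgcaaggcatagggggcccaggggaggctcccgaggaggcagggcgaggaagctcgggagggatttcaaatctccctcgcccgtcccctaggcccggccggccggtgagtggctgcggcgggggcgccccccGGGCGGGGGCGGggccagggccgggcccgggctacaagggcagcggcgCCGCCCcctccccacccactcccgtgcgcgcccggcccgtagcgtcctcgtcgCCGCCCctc
Klf2: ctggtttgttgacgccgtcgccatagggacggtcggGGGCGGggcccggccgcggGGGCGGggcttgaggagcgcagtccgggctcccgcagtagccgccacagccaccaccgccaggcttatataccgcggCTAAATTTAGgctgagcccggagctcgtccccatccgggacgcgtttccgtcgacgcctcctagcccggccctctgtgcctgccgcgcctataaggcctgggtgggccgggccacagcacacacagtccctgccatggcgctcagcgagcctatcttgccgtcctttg
The GC box matched at 2 places in the Sox2 window, 4 in Utf1 (a pair of them sharing 1 base), 4 in Dnmt3b and 2 in Klf2, and 35.7% of all 32851 windows hold it. The MEF2 motif lay 118 to 109 bases before the Klf2 start, and 0.557% of windows hold it. All 4 windows were rich in CpG, with 27 CpG in Sox2, 17 in Utf1, 30 in Dnmt3b and 32 in Klf2 against a median of 7 over all windows. The 4 annotated Otx2 windows on chromosome 14 held 6 to 16 CpG and no GC box, and 1 of them held the TATA box TATAAA, which 13.6% of windows hold. The octamer ATGCAAAT (1.74% of windows) and the Sox motif AACAATG (3.78%) had no match on either strand in any window of these genes. A match describes letters only, and no match says only that those letters are not in these 300 bases.

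The sort could be checked on the arrays through Kdr. Kdr lay between 0.04 and 1.80 on the Flk1+ arrays of 84 h against -1.08 to -0.74 in Flk1-, between 1.73 and 1.98 against -1.30 to -1.0 at 95 h, and between 1.46 and 1.89 against -0.35 to -0.28 at 8 d, so every Flk1+ array lay above every Flk1- array of its time. Replicate arrays were least alike in Flk1+ cells of 84 h, where the lowest correlation over all features within the group was 0.59. In Flk1- cells of 84 h it was 0.877, and over both sorts it was 0.669 at 95 h and 0.925 at 8 d. Flk1+ arrays 2 and 4 of 84 h had the widest spread of values over all probes (SD 1.01 and 1.00) and the lowest Kdr of their group, 0.04 and 0.67. These 2 arrays, with Flk1- array 4 of 84 h, are the 3 arrays of 84 h that an earlier account of these data singled out, and each 84 h result of the 6 genes whose call changes without them is given both ways. Stem cell markers remained in both sorts at 84 h, when the mean of 5 measured marker genes lay between 1.43 and 1.87 in Flk1+ and between 1.83 and 2.22 in Flk1-, and by 8 d it was 0.20 to 0.25 and 0.44 to 0.71.

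Differences were tested with limma over all 17440 features and called at an adjusted p under 0.05. At 84 h all 6 genes were called lower in Flk1+ than in Flk1- cells, Dnmt3b through 1 of its 2 probes. In this comparison 8.18% of features were called lower and 5.3% higher. At 95 h 4 of the 6 genes were called lower, against 1.37% of features (0.659% were called higher), and at 8 d 1 was, against 0.224% (0.149% higher). Because the 6 were chosen with earlier results of these data known, these counts are a description and no test of the genes as a set. Whether a sort held fewer cells of a type or less RNA per cell cannot be told apart in bulk RNA.

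**Figure D1:**
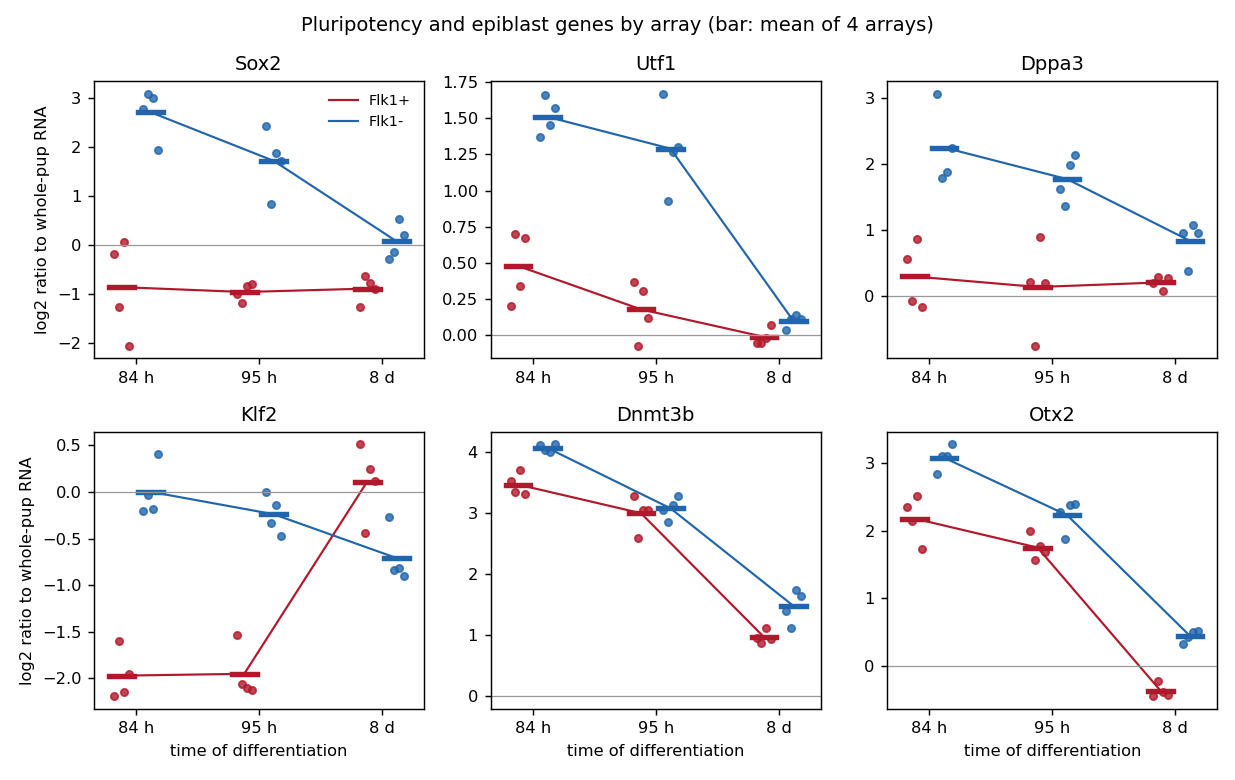
Log2 ratio to whole-pup RNA (vertical axis) of the 6 genes on each of the 24 arrays (points) at 84 h, 95 h and 8 d, with Flk1+ in red and Flk1- in blue and bars at the mean of 4 arrays. At 84 h and 95 h Sox2, Utf1 and Dppa3 have every blue point above the red ones, Dnmt3b and Otx2 fall in both sorts, and Klf2 goes from -1.95 at 95 h to 0.11 at 8 d in Flk1+ cells.

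The sort difference of Sox2 was the largest of the 6 at 84 h and at 95 h, under the fit described and under all alternatives. At 84 h its levels on arrays 1 to 4 were -0.18, -1.27, 0.06 and -2.05 in Flk1+ cells and 2.77, 3.08, 3.00 and 1.94 in Flk1- cells. All 4 Flk1- arrays were high, the Flk1+ arrays were spread widely with arrays 2 and 4 lowest, and the groups did not overlap. The difference was -3.56 ± 0.37 (SE), which is 11.8-fold lower in Flk1+ (limma, adjusted p = 1.61e-06), and it was -3.01 without the 3 arrays of 84 h (adjusted p = 7.47e-06).

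At 95 h Sox2 stood at -1.01, -1.18, -0.84 and -0.79 in Flk1+ and at 2.42, 0.84, 1.87 and 1.70 in Flk1- cells, again with no overlap. Flk1- array 2 was the lowest of its group and still lay above all Flk1+ arrays. The difference of -2.66 ± 0.37 was 6.34-fold (adjusted p = 0.000139). By 8 d the Flk1+ arrays read -1.26, -0.63, -0.78 and -0.90 and the Flk1- arrays -0.29, -0.15, 0.52 and 0.21. The groups were still apart, yet the difference of -0.97 (95% interval -1.73 to -0.20) was not called over all features (adjusted p = 0.654).

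In Flk1- cells Sox2 fell by 1.64 ± 0.37 from 95 h to 8 d (3.11-fold, adjusted p = 0.00312). Over the whole course the change was -2.63 (6.17-fold, adjusted p = 1.73e-05). Its step from 84 h to 95 h in Flk1- was -0.99 and was not called (adjusted p = 0.194), although it was without the 3 arrays of 84 h (-1.24, adjusted p = 0.0134). In Flk1+ cells the mean was -0.86 at 84 h, -0.96 at 95 h and -0.89 at 8 d, and neither step was called. Over the whole course the Flk1+ change was -0.03, and without the 3 arrays it became -0.84 (adjusted p = 0.0368), because arrays 2 and 4 hold the low values of 84 h. The sort difference shrank from 84 h to 8 d by 2.59 ± 0.52 on the log2 scale (adjusted p = 0.00679), a test of the difference itself. From 95 h to 8 d its change was 1.7 ± 0.52 and was not called (adjusted p = 0.241). That change was called without the 3 arrays of 84 h (adjusted p = 0.0137), with only the arrays compared (0.0393) and with array weights (0.0231).

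Utf1 was raised in Flk1- cells at the early times and near 0 everywhere at 8 d. At 84 h the Flk1+ arrays read 0.20, 0.70, 0.34 and 0.67 and the Flk1- arrays 1.37, 1.66, 1.45 and 1.57. At 95 h they read 0.37, -0.07, 0.31 and 0.12 against 1.67, 0.93, 1.27 and 1.30. No Flk1+ array reached the Flk1- range at either time.

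The Utf1 difference was -1.04 ± 0.14 at 84 h (2.05-fold, adjusted p = 3.02e-05) and -1.11 ± 0.14 at 95 h (2.15-fold, adjusted p = 3.33e-05). At 8 d the Flk1+ levels were -0.05, -0.05, -0.02 and 0.07 and the Flk1- levels 0.04, 0.11, 0.14 and 0.11, which overlap. The difference there was -0.11 (95% interval -0.39 to 0.17, adjusted p = 1.0). A level near 0 means a ratio close to that of the middle probe of the array, and whether the probe was above background could not be judged from the ratios. Utf1 fell by 1.19 ± 0.14 in Flk1- cells from 95 h to 8 d (2.29-fold, adjusted p = 1.33e-06). Its change in Flk1+ cells between 84 h and 8 d was -0.49 (adjusted p = 0.00696), a call lost without the 3 arrays of 84 h (-0.28, adjusted p = 0.16). The sort difference of Utf1 shrank by 1.00 ± 0.19 from 95 h to 8 d (adjusted p = 0.0159) and by 0.93 ± 0.19 from 84 h to 8 d (adjusted p = 0.00822).

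Dppa3 followed the same order of groups as Sox2, Flk1- of 84 h, 95 h and 8 d first and then the 3 Flk1+ groups, whose ranges overlap. At 84 h it read 0.56, -0.09, 0.86 and -0.17 in Flk1+ and 3.07, 1.79, 1.88 and 2.25 in Flk1- cells. At 95 h it read 0.20, -0.76, 0.89 and 0.19 against 1.62, 1.36, 1.98 and 2.13. Flk1- array 1 of 84 h was the highest of all 24, and no groups of a time overlapped. The difference was -1.96 ± 0.31 at 84 h (3.88-fold, adjusted p = 0.000261) and -1.64 ± 0.31 at 95 h (3.12-fold, adjusted p = 0.00315). A fit of the 95 h arrays alone gave an adjusted p of 0.0575.

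At 8 d Dppa3 levels of 0.19, 0.28, 0.07 and 0.27 in Flk1+ and 0.95, 0.37, 1.07 and 0.95 in Flk1- still did not overlap, though Flk1- array 2 lay close to the Flk1+ arrays. The difference of -0.63 (95% interval -1.26 to 0) was not called (adjusted p = 1.0). A fit of the 8 d arrays alone (adjusted p = 0.0424) and array weights (adjusted p = 0.0259) did call it. The change in Flk1- cells over the whole course was -1.41 ± 0.31 (2.66-fold, adjusted p = 0.00197). For the span from 95 h to 8 d it was -0.94 (adjusted p = 0.0363), and this call was lost when Flk1- array 3 or 4 of 95 h or Flk1- array 1, 2 or 4 of 8 d was left out (adjusted p from 0.0606 to 0.124). In Flk1+ cells no step of Dppa3 was called. The change of its sort difference from 84 h to 8 d was 1.32 ± 0.43 and was not called (adjusted p = 0.0971).

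Dppa3 is also a gene of primordial germ cells, so the other measured markers of that cell type stand beside it. Their mean over 6 genes was higher in Flk1- (0.13 to 0.35 at 84 h and 0.40 to 0.83 at 95 h) than in Flk1+ arrays (-0.31 to 0.03 and -0.04 to 0.09). Of the 6, Kit, a receptor tyrosine kinase that stem cells and early endoderm also carry, was lower in Flk1+ at 84 h (-1.38 ± 0.22, adjusted p = 0.000356). At 95 h Kit (-1.46) and Ifitm3 (-0.60) were, and Tfap2c, Nanos3, Ddx4 and Dazl were not called at either time. The part of germ cells in the Dppa3 difference was not tested.

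Sox2 and Otx2 are expressed in neural cells as well, and of the neural markers Pax6, Nes, En1 and Map2 were measured. None of the 4 was called between the sorts at any time by limma, with 3, 0 and 0 at an unadjusted p under 0.05 at 84 h, 95 h and 8 d. Pax6 had -0.72 at 84 h (adjusted p = 0.139), and it was called lower in Flk1+ without the 3 arrays of 84 h (-1.2, adjusted p = 0.0255). The mean of the 4 overlapped between the sorts at 84 h and 95 h (-1.16 to -0.47 in Flk1+ against -0.75 to -0.61 in Flk1- at 84 h). Endoderm markers went both ways at 84 h. Their mean over 8 genes lay between -0.89 and -0.72 in Flk1+ and between -0.65 and -0.31 in Flk1- arrays, while 3 of the 8 were called higher in Flk1+ (Gata4 by 0.81, Gata6 by 0.50 and Apoa1 by 0.36), 2 were called lower (Foxa2 with -1.95 and Sox17 with -0.80) and the median difference was -0.06. Without the 3 arrays of 84 h Apoa1 (adjusted p = 0.0706) and Sox17 (0.0731) were not called. Markers of the primitive streak and nascent mesoderm ran the other way at 84 h (8 genes, mean 1.88 to 2.32 in Flk1+ against 1.14 to 1.74 in Flk1-), with Snai1 (1.56) and Mesp1 (1.49) among the 4 called higher in Flk1+, and these were called without the 3 arrays too (1.43 and 1.33), whereas Eomes (0.41, adjusted p = 0.21) and Mesp2 (0.23, adjusted p = 0.241) were not. At 95 h limma called none of the 8 streak and mesoderm markers between the sorts (3 at an unadjusted p under 0.05). Their mean then overlapped, with 1.54 to 1.76 in Flk1+ against 1.37 to 1.72 in Flk1-. The part of these cell types in the differences of the 6 genes was not tested.

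**Figure D2:**
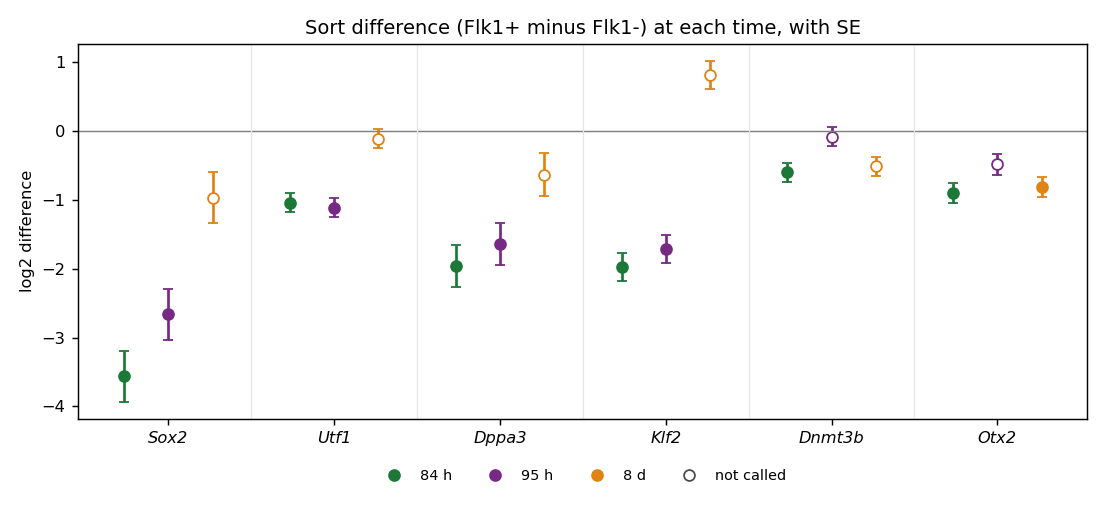
Log2 difference Flk1+ minus Flk1- with its standard error (vertical axis) for each of the 6 genes at 84 h, 95 h and 8 d, with filled points where the difference was called and open points where it was not. All 6 are below 0 and called at 84 h, and Klf2 is the gene whose point lies above 0 at 8 d.

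Klf2 was low in Flk1+ cells at the early times and rose there by 8 d, when its mean lay above that of Flk1- cells. Its levels at 84 h were -2.19, -1.60, -2.15 and -1.95 in Flk1+ and -0.20, -0.03, -0.18 and 0.41 in Flk1- cells. At 95 h they were -1.53, -2.06, -2.10 and -2.12 against 0.00, -0.33, -0.14 and -0.47. The 8 Flk1+ arrays of both times were the lowest of all 24 arrays. The difference was -1.97 ± 0.20 at 84 h (3.93-fold, adjusted p = 1.29e-06) and -1.71 ± 0.20 at 95 h (3.28-fold, adjusted p = 1.71e-05).

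By 8 d Klf2 read 0.51, -0.44, 0.25 and 0.12 in Flk1+ and -0.27, -0.84, -0.82 and -0.90 in Flk1- cells. The Flk1+ mean was then the higher, with an overlap because Flk1+ array 2 lay below Flk1- array 1. In Flk1+ cells Klf2 rose by 2.06 ± 0.20 from 95 h to 8 d (4.18-fold, adjusted p = 1.11e-07) and by 2.08 from 84 h (4.24-fold, adjusted p = 6.75e-08). In Flk1- cells it fell by 0.71 ± 0.20 over the whole course (adjusted p = 0.0163), a call lost without Flk1- array 4 of 84 h (-0.57, adjusted p = 0.0747) or without Flk1- array 2 (-0.66, adjusted p = 0.0507) or 4 (-0.64, adjusted p = 0.0577) of 8 d. The step from 95 h to 8 d in Flk1- was -0.47 and not called (adjusted p = 0.112). With the replicate numbers as a block it was (adjusted p = 0.0234).

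The Klf2 difference at 8 d was 0.82 ± 0.20 (95% interval 0.40 to 1.23). It missed the threshold in the fit over all features, which does not pair the arrays (adjusted p = 0.0854). It passed with the replicate numbers as a block (adjusted p = 0.0152), without Flk1+ array 2 (1.00, adjusted p = 0.024) and without the 3 arrays of 84 h (0.0326). It also passed under quantile normalization (1.03, adjusted p = 0.0438), with array weights (0.00069) and with named features only (0.0491). In the other 28 of 34 alternatives it was not called. The change of the sort difference was called, at 2.53 ± 0.28 from 95 h to 8 d (adjusted p = 3.78e-05) and 2.79 ± 0.28 from 84 h to 8 d (adjusted p = 6.94e-06). Such a positive change was called for 2 of the 6 genes, Klf2 and Utf1, and for 0.35% of features from 95 h to 8 d. It was called for 3 of the 6, Klf2, Sox2 and Utf1, and for 2.32% of features from 84 h to 8 d. Between 84 h and 95 h limma called none of the 6 (1 at an unadjusted p under 0.05), and 0.00573% of features in either direction.

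Klf2 is a gene of endothelium, so endothelial markers stand beside it. Their mean over 10 genes, Kdr among them, lay between -0.30 and -0.02 on the Flk1+ arrays of 8 d, against -0.89 to -0.66 at 84 h, and between -0.76 and -0.73 on the Flk1- arrays of 8 d, against -1.08 to -0.94 at 84 h. Between the sorts this mean is partly set by the sorting, since Kdr is the gene of the sort. The median difference of the 10 genes was 0.11 between the sorts at 84 h (0.0 over all features) and 0.19 at 8 d (0.01). From 84 h to 8 d it was -0.05 in Flk1- cells (-0.03 over all features) and 0.48 in Flk1+ cells (0.01). Cdh5, the cadherin of endothelial junctions, was higher in Flk1+ at 8 d (1.84 ± 0.15, adjusted p = 5.83e-07), and so was Eng, a TGF-beta coreceptor of endothelium (1.39 ± 0.22, adjusted p = 0.00261). With Kdr, whose call follows from the sorting, 3 of the 10 were called higher at 8 d and none lower, beside 0.149% and 0.224% of features. From 84 h to 8 d in Flk1+ cells 6 of the 10 were called higher, beside 21.0% of features. Kdr, 1 of these 6, was not called without the 3 arrays of 84 h (-0.04, adjusted p = 0.867). Over that span 1 was called lower, Sox18 (-0.62, adjusted p = 0.00041), beside 18.2% of features. At 95 h Flt1 was called lower in Flk1+ than in Flk1- (-0.66, adjusted p = 0.0281). The part of endothelial cells in the rise of Klf2 was not tested.

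Dnmt3b and Otx2 fell with time in both sorts. Dnmt3b, as the mean of its 2 probes, read 3.53, 3.34, 3.71 and 3.32 in Flk1+ and 4.12, 4.04, 4.00 and 4.13 in Flk1- cells at 84 h. At 95 h it read 3.28, 2.60, 3.06 and 3.05 against 3.06, 2.85, 3.14 and 3.28. At 8 d it read 0.95, 0.87, 1.12 and 0.94 against 1.39, 1.12, 1.74 and 1.65. The ratio to whole-pup RNA was thus high in all 16 early arrays and lower on each of the 8 arrays of 8 d.

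Dnmt3b changed by -2.03 ± 0.14 in Flk1+ (4.08-fold, adjusted p = 9.78e-10) and by -1.61 ± 0.14 in Flk1- cells (3.05-fold, adjusted p = 3.47e-08) between 95 h and 8 d. The changes from 84 h to 8 d were -2.50 (5.68-fold) and -2.60 (6.06-fold), and the change of the sort difference over that span was 0.09 (adjusted p = 0.825). The earlier step from 84 h to 95 h was -0.99 ± 0.14 in Flk1- (adjusted p = 0.00162) and -0.48 ± 0.14 in Flk1+ (adjusted p = 0.0258). Under quantile normalization the Flk1+ step became 0.16 (adjusted p = 0.605), of the opposite sign, and the Flk1- step -0.46 (adjusted p = 0.208). The Flk1+ step was also lost without Flk1+ array 3 of 84 h (-0.40, adjusted p = 0.0511) or Flk1+ array 2 of 95 h (-0.34, adjusted p = 0.0911).

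**Figure D3:**
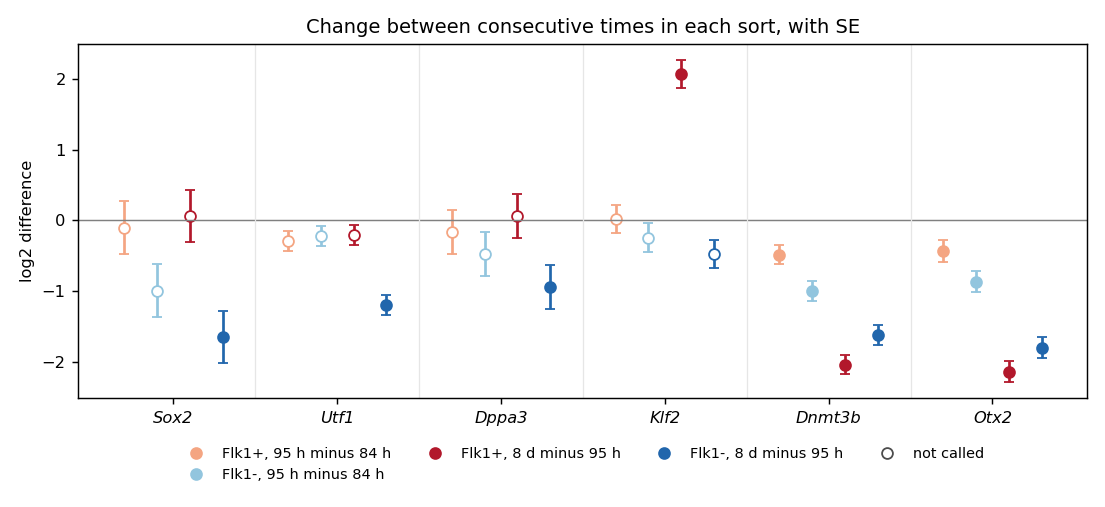
Log2 change between consecutive times with its standard error (vertical axis) for each of the 6 genes in each sort, filled where called and open where not. From 95 h to 8 d Dnmt3b and Otx2 fall in both sorts, Sox2, Utf1 and Dppa3 in Flk1- cells only among the called changes, and Klf2 rises in Flk1+ cells.

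The 2 Dnmt3b probes did not give the same account of the sort. Probe 7427 read 3.70, 3.94, 3.67 and 3.86 in Flk1+ and 4.11, 3.92, 3.96 and 4.01 in Flk1- cells at 84 h, which overlap. Probe 14143 read 3.35, 2.74, 3.74 and 2.79 against 4.13, 4.17, 4.05 and 4.25, with Flk1+ arrays 2 and 4 lowest. The difference was -0.21 ± 0.14 for the former (adjusted p over all probes = 0.324) and -0.99 ± 0.20 for the latter (adjusted p = 0.00272).

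The call of the Dnmt3b mean at 84 h, -0.60 ± 0.14 (1.51-fold, adjusted p = 0.0102), therefore rests on probe 14143. It was lost without the 3 arrays of 84 h (-0.44, adjusted p = 0.177). At 95 h the probes had opposite signs, 0.28 (adjusted p = 0.539) and -0.45 (adjusted p = 0.411), and their mean was -0.08 (95% interval -0.38 to 0.21, adjusted p = 0.97). At 8 d they read -0.58 and -0.43 and neither was called (adjusted p = 0.0866 and 0.981), nor was the mean of -0.51 (adjusted p = 0.196). With array weights the mean was called (-0.49, adjusted p = 0.000878).

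For the changes with time the probes had the same sign. The step from 84 h to 95 h was called for probe 7427 (-0.80 in Flk1+, adjusted p = 0.00214, and -1.28 in Flk1-, adjusted p = 0.000203) and not for probe 14143 (-0.16, adjusted p = 0.593, and -0.70, adjusted p = 0.0777). Over the whole course both probes were called in both sorts, at -2.72 and -2.29 in Flk1+ and -2.34 and -2.85 in Flk1- cells. Where on the Dnmt3b transcript the probes lie was not analysed here.

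**Figure D4:**
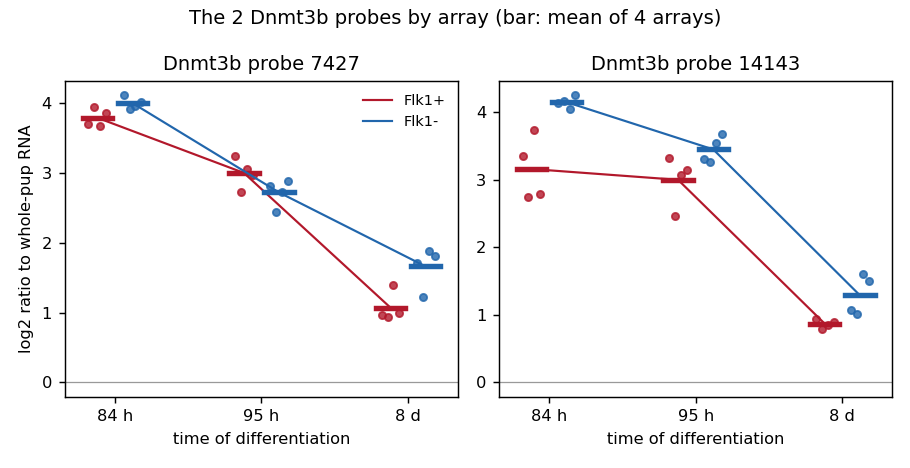
Log2 ratio to whole-pup RNA (vertical axis) of the 2 Dnmt3b probes on each array (points), Flk1+ in red and Flk1- in blue, with bars at the mean of 4 arrays. At 84 h the sorts overlap for probe 7427 and are apart for probe 14143, and both probes are lower at 8 d.

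Otx2 read 2.35, 2.15, 2.51 and 1.73 in Flk1+ and 2.84, 3.11, 3.11 and 3.28 in Flk1- cells at 84 h. At 95 h it read 2.00, 1.56, 1.77 and 1.68 against 2.27, 1.87, 2.38 and 2.40, and at 8 d -0.45, -0.22, -0.39 and -0.43 against 0.32, 0.42, 0.50 and 0.52. The Flk1+ mean was the lower at each time, with an overlap at 95 h through Flk1+ array 1 and Flk1- array 2.

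The Otx2 difference was -0.90 ± 0.15 at 84 h (1.87-fold, adjusted p = 0.000428), and it was -0.59 without the 3 arrays of 84 h (adjusted p = 0.0205). At 95 h the difference of -0.48 (95% interval -0.78 to -0.17) was not called (adjusted p = 0.121). Without Flk1- array 2 of 95 h it was -0.60 (adjusted p = 0.032), without Flk1+ array 4 of 84 h -0.48 (adjusted p = 0.0441), and without the 3 arrays of 84 h -0.48 (adjusted p = 0.0227). At 8 d Otx2 was the 1 gene of the 6 that was called between the sorts, at -0.81 ± 0.15 (adjusted p = 0.0103). Leaving out Flk1- array 4 of 8 d gave -0.78 (adjusted p = 0.0505).

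Between 95 h and 8 d Otx2 changed by -2.13 ± 0.15 in Flk1+ (4.36-fold, adjusted p = 8.12e-10) and by -1.79 ± 0.15 in Flk1- cells (adjusted p = 1.19e-08). Over the whole course it changed by -2.56 and -2.65, and the change of its sort difference over that span was 0.09 (adjusted p = 0.84). The step from 84 h to 95 h was -0.86 in Flk1- (adjusted p = 0.00525), -0.60 under quantile normalization (adjusted p = 0.0905), and not called in a fit of those arrays alone (adjusted p = 0.052). In Flk1+ the step was -0.43 with overlapping arrays (adjusted p = 0.0435), and it held in 16 of 34 alternative settings.

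Counted by time, 2 of the 6 genes fell from 84 h to 95 h in each sort, Dnmt3b and Otx2, beside 8.62% of features in Flk1+ and 0.585% in Flk1- cells. In Flk1+ cells 1 gene rose and 2 fell between 95 h and 8 d, beside 12.8% of features that rose and 9.31% that fell. In Flk1- cells 5 fell over the same span, all but Klf2, beside 7.78% of features. Over the whole course 1 rose and 3 fell in Flk1+ cells (21.0% of features higher and 18.2% lower), and all 6 fell in Flk1- cells (9.79% higher and 6.71% lower).

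Likeness between genes is given as Pearson's r of their levels over the 24 arrays, which share groups, reference and array effects, as a description. Dnmt3b and Otx2 had an r of 0.98, and each was the most alike named gene of the other. Dnmt3b was next most like Nmt2 (0.958), an N-myristoyltransferase, and Gsc (0.957), a homeobox gene of the organizer whose mean was 3.17 at 84 h and -0.38 at 8 d in Flk1+, and 3.26 and -0.27 in Flk1- cells. Otx2 was next most like Zfp936 (0.955) and Slc25a13 (0.954), a mitochondrial aspartate and glutamate carrier.

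Sox2 had an r of 0.91 with Dppa3 and 0.84 with Utf1, and Utf1 had 0.79 with Dppa3. The genes most like Sox2 were Tpd52 (0.945), Plekhf2 (0.927) and Klf9 (0.919). Those most like Utf1 were Cbx7, a Polycomb protein of stem cells (0.945), Lefty1, a Nodal inhibitor (0.941), and Rgs17 (0.938). For Dppa3 they were Sox2 itself (0.908), Nefl (0.892) and Tpd52 (0.891). Tpd52 had group means of 1.56 and 0.90 in Flk1- cells at 84 h and 95 h and between -1.49 and -0.38 in the other 4 groups.

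Klf2 had an r of 0.51 to Sox2, 0.37 to Utf1, 0.49 to Dppa3, -0.27 to Dnmt3b and -0.19 to Otx2. Dnmt3b had much the same r to Sox2 (0.51) and Dppa3 (0.5), with 0.73 to Utf1. Klf2 thus stood apart in its lower r to Utf1 and its negative r to Dnmt3b and Otx2, and not toward Sox2 and Dppa3. The genes most like Klf2 were Aopep (0.894), Pdk1 (0.866), a kinase that holds back pyruvate dehydrogenase in low oxygen, and Ypel1 (0.863). Pdk1 had means of 0.22 and -0.46 in Flk1+ at 84 h and 95 h and 1.29 at 8 d, against 1.76, 0.87 and 1.04 in Flk1- cells.

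Other genes of pluripotency did not all go with the 6. Nanog, the naive pluripotency factor, read 1.21, 0.31, 1.10 and 0.70 in Flk1+ and 1.44, 1.26, 1.37 and 1.17 in Flk1- cells at 84 h, with an overlap, and its difference was -0.48 ± 0.15 (adjusted p = 0.0433). Without the 3 arrays of 84 h it was -0.20 and not called (adjusted p = 0.465). At 95 h it was -0.52 and not called (adjusted p = 0.0921). Nanog changed between 84 h and 8 d by -0.87 in Flk1+ (adjusted p = 0.000154) and by -1.27 in Flk1- cells (adjusted p = 2.27e-06), to between -0.07 and 0.14 on all arrays of 8 d. Pou5f1 was not analysed here.

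Of 22 naive pluripotency genes besides the 6, 19 were measured. At 84 h 4 were called lower and 1 higher in Flk1+ (median difference -0.17 against 0.00 over all features), at 95 h 2 lower and 1 higher (median -0.35), and at 8 d limma called none (7 at an unadjusted p under 0.05). The counts lower in Flk1+ were 1, 5 and 3 without the 3 arrays of 84 h, and 2 at 84 h without Flk1+ array 4 or Flk1- array 1. At 95 h 4 were lower without Flk1+ array 2 of 84 h or Flk1- array 2 of 95 h. The gene that was higher was Tbx3, a T-box factor of naive cells that is also used in mesoderm (2.37 ± 0.18 at 84 h, adjusted p = 2.1e-08, and 1.99 at 95 h). Zfp42, the stem cell marker Rex1 (-1.36 ± 0.32, adjusted p = 0.00912), Dppa4 (-1.03), Klf5 (-0.87) and Nanog were those called lower at 84 h. None of these 4 was called without the 3 arrays, where Zfp42 had -0.37 (adjusted p = 0.29), Dppa4 -0.65 (0.119) and Klf5 -0.45 (0.398), while Tbx3 had 2.34 (8.82e-08) and Tfcp2l1 was called instead (-0.47, 0.00842). At 95 h Fbxo15 (-0.71) and Nr5a2 (-0.49) were.

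Between 84 h and 8 d 5 naive genes fell and 3 rose in Flk1+ (median -0.21), and 6 fell and 4 rose in Flk1- cells (median -0.04). Over all features 18.2% were called lower and 21.0% higher in Flk1+ cells over this span, and 6.71% and 9.79% in Flk1-, and these shares also stand beside the counts of the other lists from 84 h to 8 d. Socs3, an inhibitor of LIF signalling, rose in both sorts (2.17 and 2.12), as did Stat3, the transcription factor of that pathway (1.06 and 1.10). Tbx3 fell in Flk1+ cells (-2.48 ± 0.18, adjusted p = 6.25e-10), with 0.48 in Flk1- (adjusted p = 0.0675). Zfp42 fell in both sorts (-1.58 and -1.72).

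Of 13 core and general pluripotency genes 9 were measured, and 3 were called lower in Flk1+ at 84 h, 2 at 95 h and none at 8 d by limma (1 at an unadjusted p under 0.05). Without the 3 arrays of 84 h the counts were 1, 4 and 0. Leaving out single arrays gave 2 to 5 at 84 h, the 5 without Flk1+ array 3, and 0 to 3 at 95 h, the 0 without Flk1+ array 4 or Flk1- array 1 or 3 of 95 h. Jarid2, a partner of Polycomb complex PRC2, was lower at 84 h (-1.31 ± 0.25, adjusted p = 0.00194) and 95 h (-1.05), Rif1 (-0.90) and Nanog at 84 h, and Phc1 (-0.42) at 95 h. Without the 3 arrays Jarid2 was called at 84 h (-0.77, adjusted p = 0.00982) and Rif1 was not (-0.27, adjusted p = 0.203). The median differences were -0.39, -0.10 and -0.08. Over the whole course 5 of the 9 fell in each sort, led by Tdgf1, the Nodal coreceptor Cripto (-3.68 ± 0.24 in Flk1+, adjusted p = 1.92e-10, and -3.00 in Flk1-).

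Of 19 formative and primed epiblast genes 12 were measured, and at 84 h limma called 3 of them higher in Flk1+, 3 lower and 6 neither (median difference 0.32). Lefty1 was lower at 84 h (-2.28 ± 0.17, adjusted p = 2.38e-08) and 95 h (-2.44), while Cdh2, the N-cadherin of mesoderm and neural cells, was higher at 84 h (0.98 ± 0.14, adjusted p = 0.000112). Lefty2 was higher (0.84) and Fgf5, a marker of primed epiblast, lower (-0.67) at 84 h, with overlapping arrays, and neither was called without the 3 arrays (0.31, adjusted p = 0.588, and -0.38, adjusted p = 0.391). By 8 d 9 of the 12 had fallen and 1 had risen in Flk1+ (median -0.84), and 5 had fallen in Flk1- cells (median -0.33). Lefty2 changed by -3.28 and -2.40, and Fgf8, a growth factor of the streak, by -1.08 and -0.83.

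Among 12 measured genes of DNA methylation other than Dnmt3b, Apex1, a base excision repair enzyme, was the 1 called between the sorts at 84 h (0.54, adjusted p = 0.0105, and 0.39 with 0.105 without the 3 arrays), and limma called none at 95 h or 8 d (1 at each time at an unadjusted p under 0.05). Dnmt3l, the catalytically inactive partner of Dnmt3b, changed between 84 h and 8 d by -0.81 in Flk1+ (adjusted p = 0.000445) and by -1.02 in Flk1- cells (adjusted p = 5.95e-05). Dnmt3a, the other de novo enzyme, rose by 0.40 in Flk1+ (adjusted p = 0.00251) and had 0.26 in Flk1- (adjusted p = 0.0767). Dnmt1, the maintenance enzyme, had -0.24 in each sort (adjusted p = 0.118 and 0.208). Mbd2, a reader of methylated DNA, rose by 1.69 and 1.68.

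Of 8 other Sox genes 2 were lower in Flk1+ at 84 h and at 95 h, Sox15 (-0.86 and -1.42) and Sox17, a factor of endoderm (-0.80 and -1.76), and limma called none at 8 d (1 at an unadjusted p under 0.05). Of 13 other Krüppel-like genes 3 were lower at 84 h, Klf9 (-1.02), Klf5 and Klf7 (-0.54), and Klf13 was higher (0.38). Without the 3 arrays of 84 h Sox17, Klf5 and Klf13 (0.16, adjusted p = 0.309) were not called, and Sox15 (-0.78), Klf9 (-0.70) and Klf7 (-0.49) were. At 95 h Klf9 (-0.77) was the 1 called. By 8 d 4 of the 13 had risen and 2 had fallen in Flk1+, and 5 and 1 in Flk1- cells, among them Klf6 (1.62 and 0.95) and Klf3 (1.47 and 1.02), which rose in both sorts. Klf4, of the naive network, rose in Flk1- cells (1.02, adjusted p = 0.0135) and had 0.67 in Flk1+ (adjusted p = 0.0627).

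**Figure D5:**
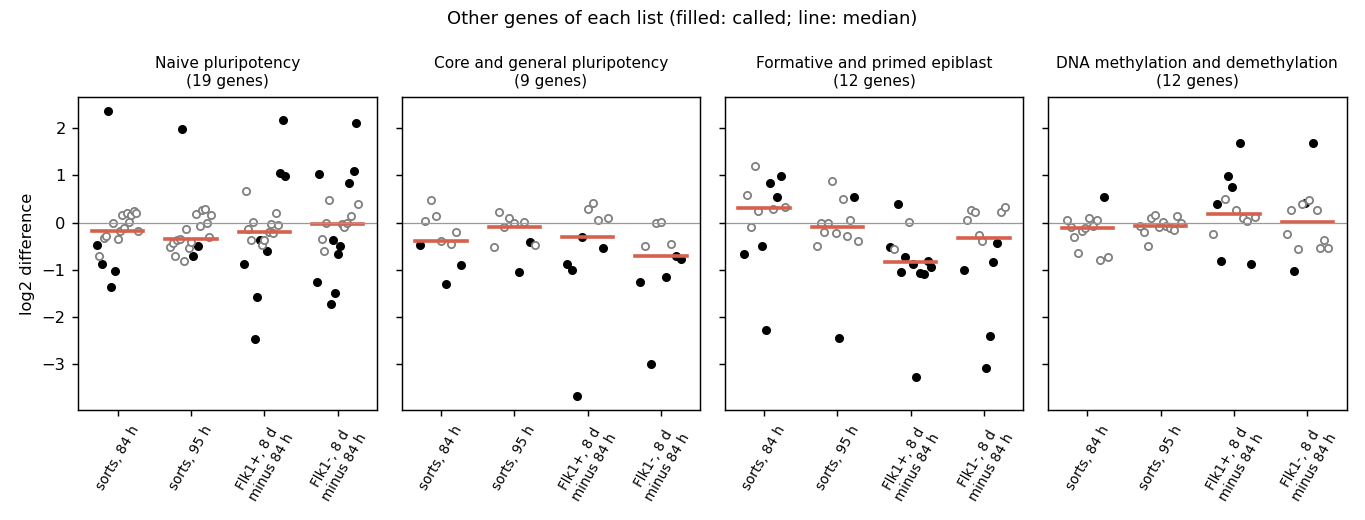
Log2 differences (vertical axis) of the other measured genes of 4 lists, each point 1 gene, for the sorts at 84 h and 95 h and for 8 d minus 84 h in each sort, filled where called, with a line at the median. Medians between the sorts lie within 0.39 of 0, and the formative and primed list has its lowest median, -0.84, in Flk1+ cells from 84 h to 8 d.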

How the data were processed

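The authors deposited 1 value per probe and array for 20280 probes on 24 arrays, signed numbers from -6.42 to 5.33 handled here as log2 ratios. The steps before deposit (feature extraction, background correction, normalization within arrays), the log base and the direction are not given in the sources used here. Per the labels, sample RNA was Cy5 and the common whole-pup reference Cy3. Without intensities, no probe could be called above or below background.

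Here each array's median was set to 0 and probes of 1 gene were averaged, which left 17440 features. All arrays entered 1 limma fit (limma 3.58.1 in R 4.3.3, lmFit and eBayes) with a mean per group, 18 residual and 3.41 prior degrees of freedom. Benjamini-Hochberg adjustment ran over all features, or over all probes for single probes, and a difference was called at an adjusted p under 0.05. To check the code, the fit was run on simulated independent values with known changes added. Those values held no array effects and no pairing, so the check says nothing of how these act on the calls. Arrays limit precision through their number, 4 per group. The labels number the samples 1 to 4 without naming separate cultures. The p-values then measure only how far these samples spread, and that spread may be technical.

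The numbers 1 to 4 were checked for pairing between the sorts. Deviations from the group means correlated between same-numbered arrays at 0.107 to 0.417 at 95 h and 0.146 to 0.437 at 8 d. Arrays of other numbers had -0.301 to 0.064 and -0.315 to 0.12. At 84 h the ranges overlapped, with -0.127 to 0.526 for same numbers and -0.521 to 0.365 for others. The numbers thus pair the samples at 95 h and 8 d, and pairing at 84 h was not clear. The fit that gave the printed differences, SEs and calls did not use this pairing. For Klf2 between the sorts at 8 d the SE was 0.20 in that fit and 0.13 with the block within time. A blocked value is printed where it changes a call at 95 h or 8 d.

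The 6 genes, the gene lists and the alternatives were chosen with earlier results of these data known. All 6 genes are named in every comparison, Kdr as the gene of the sort, the 3 most alike named genes of each, Nanog, and any measured gene of a list with its values, with up to 4 called genes per list and comparison preferred. The alternatives were values as deposited, quantile normalization, the probe of the largest SD, single probes, only the arrays compared, array weights, trend and robust eBayes, named features only, the 3 arrays of 84 h left out, replicate blocks within time and over all groups, and each of the 24 arrays left out. Figures used Python 3.11.15 with matplotlib 3.10.9.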

Additional observations from a re-analysis of the deposited data

Results flagged for a closer look

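In 5 of 54 groups of 4 arrays looked at, 1 array lay far from the other 3, where chance gives about 1 in 20. Klf2 stood at -1.53 on Flk1+ array 1 of 95 h, against -2.12 to -2.06 on the other 3, and at -0.27 on Flk1- array 1 of 8 d. Kdr stood at -1.30 on Flk1- array 1 of 95 h and at 1.89 on Flk1+ array 4 of 8 d. Dnmt3b probe 7427 stood at 1.39 on Flk1+ array 3 of 8 d.

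The difference between the sorts itself changed with time for 3 of the 6 genes. For Klf2 the change was 2.53 from 95 h to 8 d and 2.79 from 84 h to 8 d. For Utf1 it was 1.00 and 0.93 over the same spans, and for Sox2 it was 2.59 from 84 h to 8 d.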

How the results depend on the processing

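Of 72 tests of the 6 genes, 38 were called and 28 of these kept direction and call under all 34 alternatives, as did the absence of a call for 23 of the other 34. 1 result reversed, the Dnmt3b step from 84 h to 95 h in Flk1+ cells under quantile normalization (0.16). How many of the 6 genes were called moved by over 1.5 times in 3 of the 12 comparisons. Between the sorts at 8 d it was 1, and 2 under quantile normalization, with named features only, without the 3 arrays of 84 h and with the replicate block within time, 3 with only the arrays compared, 5 with array weights, and 0 to 2 with single arrays left out. From 84 h to 95 h in Flk1+ cells it was 2, and 0 under quantile normalization and with only the arrays compared, 1 with array weights, trend and robust eBayes or the most variable probe of a gene, and 0 to 2 with single arrays left out. In Flk1- cells it was 2, and 0 under quantile normalization and 1 with only the arrays compared or the most variable probe. The cause was not tested. Of the 17440 features, limma called 2352 between the sorts at 84 h (347 to 4550 over the alternatives), 354 at 95 h (135 to 698) and 65 at 8 d (31 to 2332). Within the sorts they were 3451 (0 to 5358) in Flk1+ and 286 (70 to 2156) in Flk1- from 84 h to 95 h, 3861 (2793 to 6059) and 3080 (2308 to 6692) from 95 h to 8 d, and 6847 (4116 to 8908) and 2878 (2243 to 8669) from 84 h to 8 d. The change of the sort difference was called for 1 (0 to 46), 93 (47 to 314) and 554 (306 to 4087). Values as deposited turned the split at 84 h from 925 higher and 1427 lower to 1447 and 1209. With the replicate numbers as a block within time, features called rose to 174 higher and 371 lower at 95 h and to 71 higher and 68 lower at 8 d. The block changed the calls of Klf2 given above. In spans from 84 h, where pairing by number was not clear, it added 3 calls. These were Sox2 in Flk1- (adjusted p = 0.0473) and Utf1 in Flk1+ cells (0.0178) from 84 h to 95 h, and the change of the Dppa3 sort difference from 84 h to 8 d (0.0349). The 4 arrays per group and the absence of intensities limit what low or unchanged values show.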
